A study of Mus musculus with 12 samples.

Results

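The mitochondrial solute carriers are the genes whose symbol in the platform annotation begins with Slc25a. Slc25a13, Slc25a15 and Slc25a20 were set aside, and the brightest probe stood for each gene. The rule gave 39 carriers, read from 39 of their 43 probes, among the 17742 genes measured in mouse liver. The livers came from mice labelled with STZ-induced DM, the usual short form of diabetes mellitus, that received MENS (STZ+MENS) or did not (STZ). Control livers came from mice without treatment (control). STZ, which the labels do not spell out, is the usual short form of streptozotocin, which kills the insulin-secreting cells of the pancreas. MENS is not spelled out either, and the labels describe it as delivered through a printed circuit board for 1 h on 5 days of each week over 6 weeks. Every group is labelled with an age of 8 weeks, and neither the strain, the sex, the STZ dose nor a measure of blood glucose is given in the sources used here. Each group held 2 liver samples, and each sample was hybridised to 2 single-colour arrays, so n = 2 per group throughout. The labels do not say that a sample is 1 animal, so p-values measure the spread between these samples, which may be technical.

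Proteins of this family sit mostly in the inner mitochondrial membrane, which is closed to charged metabolites, and each swaps or carries a small set of them between matrix and cytosol. In liver they connect the matrix with lipid synthesis (citrate leaves), gluconeogenesis (malate and aspartate leave), the urea cycle (aspartate, ornithine and citrulline cross) and oxidative phosphorylation (phosphate and ADP enter, ATP leaves). Others bring in cofactors made outside the matrix, such as coenzyme A, glutathione, S-adenosylmethionine, folate and iron.

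Levels are log2 of the intensity plus an offset of 50, and differences are on the same scale, so they understate the change of dim probes. Slc25a43 was the 1 carrier with a mean intensity under 100, against 1640 of all genes. Probes differ in how well they bind, so levels were not set against each other between carriers. The median SD of a carrier was 0.11 between the arrays of a sample and 0.15 between the samples of a group, and over all genes these were 0.14 and 0.17. The hepatocyte markers Alb, Ttr, Apoa1, Tat, Fgb and Hpx had levels of 16.61 or more in every sample, and Alb averaged 18.86 in STZ+MENS, 18.99 in STZ and 18.93 in control. In a bulk tissue, fewer cells of a type and less RNA per cell cannot be told apart.

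Several carriers differed between STZ and control livers at an unadjusted p under 0.05, and none passed after adjustment over all genes. Slc25a48, Slc25a47, Slc25a40, Slc25a26 and Slc25a34 were higher in STZ, and Slc25a1, Slc25a23, Slc25a17, Slc25a44 and Slc25a45 were lower. These are 5 higher carriers (12.8% of the 39) and 5 lower carriers (12.8%), against 8.48% and 8.49% of all genes. After adjustment 0 of 39 carriers and 0.00564% of all genes, which is the single gene Top2b, passed the threshold of 0.05. The smallest adjusted p of a carrier was 0.0935, for Slc25a48. The median difference of the carriers was 0.11, against -0.02 over all genes, and the carriers ranged between -0.95 and 1.89. With only the STZ and control samples in the model, Slc25a48 passed, as did 181 genes in all (1.02%). Leaving out either STZ+MENS sample gave that same result and is no separate check, because a group of 1 sample adds no spread to the model.

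STZ+MENS livers differed from STZ livers in 14 carriers at an unadjusted p under 0.05, with none past the adjusted threshold. Slc25a25 was the carrier with the largest difference, 6.99-fold lower in STZ+MENS, and Slc25a46, Slc25a16, Slc25a40, Slc25a33, Slc25a3, Slc25a11 and Slc25a26 were lower too. Slc25a1, Slc25a42, Slc25a17, Slc25a23, Slc25a14 and Slc25a35 were higher. The 6 higher carriers made up 15.4% and the 8 lower carriers 20.5% of the 39, against 12.6% and 12.8% of all genes, and 25 carriers had an unadjusted p of 0.05 or more. After adjustment 0 carriers and 0% of all genes passed, with a smallest adjusted p of 0.0596 for a carrier (Slc25a46) and 0.0573 for any gene. The median carrier difference was -0.07, against 0.06 over all genes, while the median size of the difference, whatever its sign, was 0.36 for carriers and 0.26 for all genes. Without STZ+MENS sample 2, Slc25a11, Slc25a33 and Slc25a46 passed (adjusted p of 0.0297, 0.0361 and 0.0306), and so did 1759 genes (9.91%). Without STZ+MENS sample 1 instead, 0 carriers passed and the differences of Slc25a11 and Slc25a33 shrank to -0.34 each.

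STZ+MENS livers also stood apart from control livers in 10 carriers at an unadjusted p under 0.05. Slc25a47, Slc25a48, Slc25a14, Slc25a28, Slc25a34 and Slc25a18 were higher in STZ+MENS, and Slc25a25, Slc25a46, Slc25a16 and Slc25a11 were lower. The 6 higher carriers (15.4%) and 4 lower carriers (10.3%) stand beside 8.82% and 9.18% of all genes. None passed after adjustment, where 0.00564% of all genes did, and the smallest adjusted p of a carrier was 0.12. The comparison of STZ with control and that of STZ+MENS with STZ use the same STZ samples, so an STZ value that is low by chance enters them with opposite signs. The values in each sample are therefore given for the carriers described next.

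**Figure D1:**
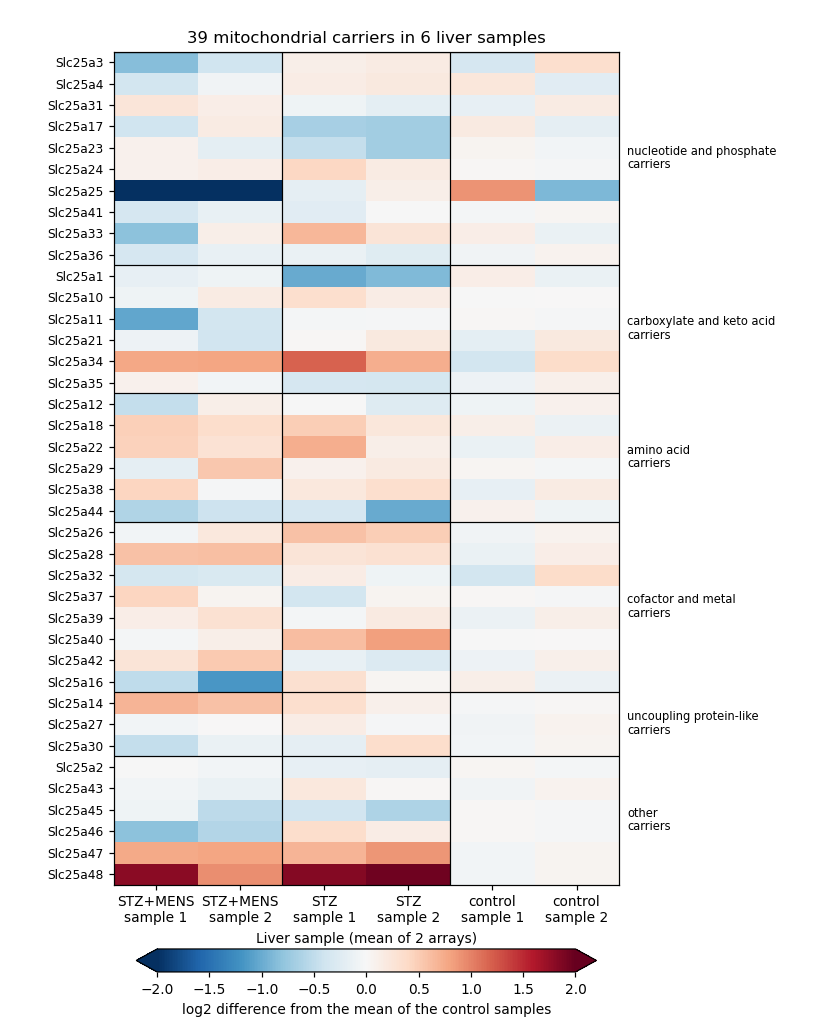
Each row is a carrier, grouped by what it transports, and each column a liver sample (mean of 2 arrays). Colour gives the log2 difference from the mean of the control samples, and colours stop at -2 and 2. Slc25a25 is low in both STZ+MENS samples and apart between the control samples, Slc25a1 is low in both STZ samples, and Slc25a48 is high in all 4 STZ+MENS and STZ samples.

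**Figure D2:**
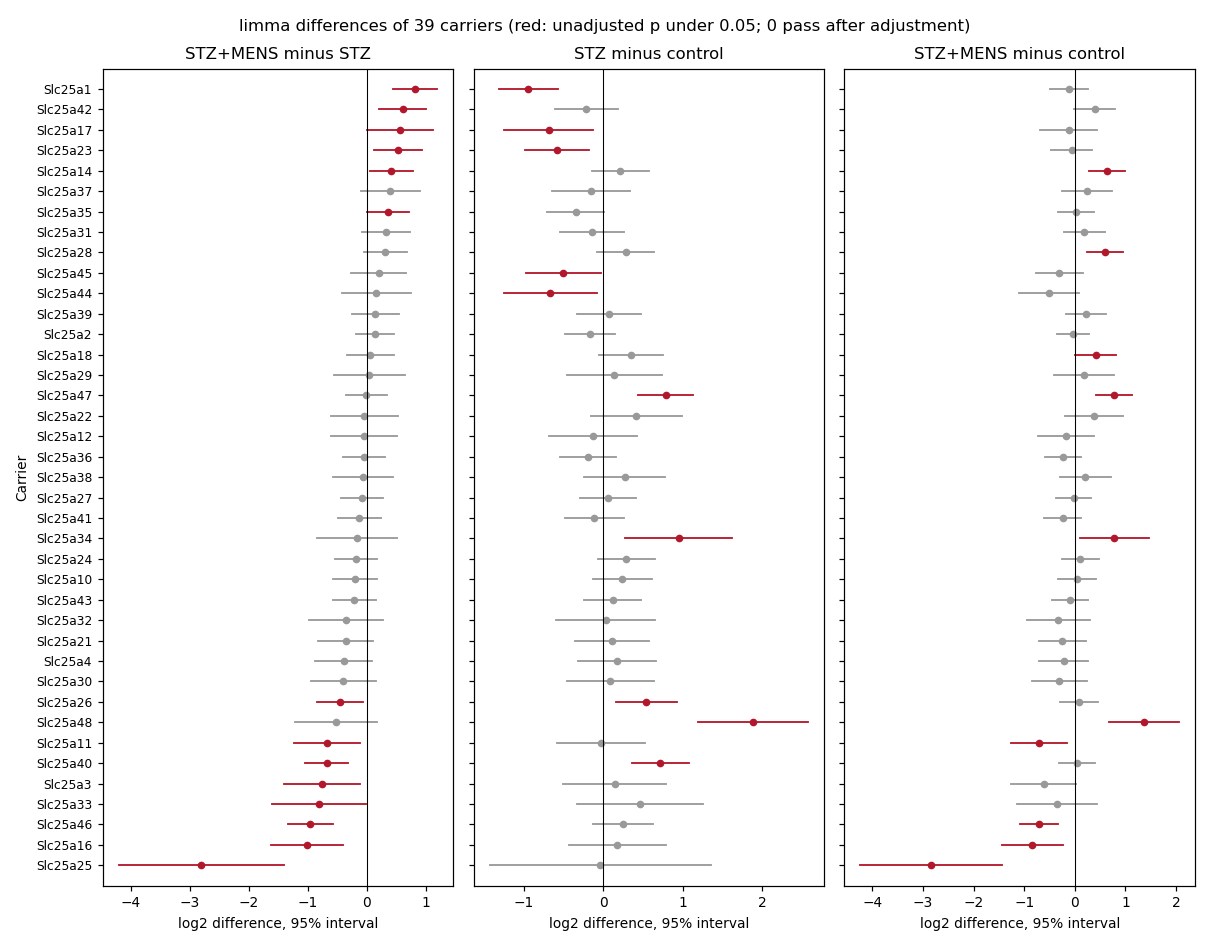
Points are limma differences on the log2 scale and lines their 95% intervals for 39 carriers in 3 comparisons, ordered by the difference between STZ+MENS and STZ. Red marks an unadjusted p under 0.05, and 0 carriers passed after adjustment in any panel.

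**Figure D3:**
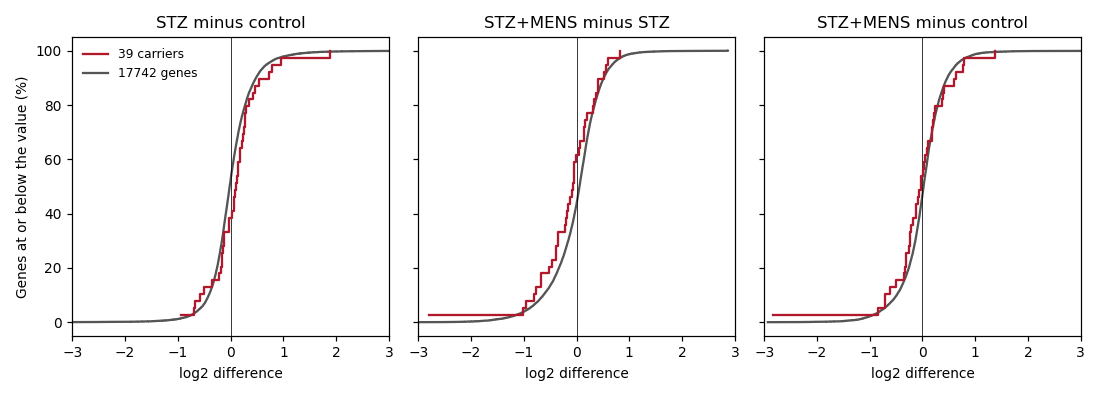
Curves give the percent of genes at or below each log2 difference, in red for 39 carriers and in grey for 17742 genes. The carrier medians were 0.11, -0.07 and -0.03 in the 3 panels, against -0.02, 0.06 and 0.02 for all genes, and the red curves start at Slc25a25 on the far left in both panels with STZ+MENS.

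Among the 10 measured carriers of nucleotides and phosphate, Slc25a25 had the largest difference. Slc25a25 is a calcium-regulated carrier that exchanges ATP-Mg for phosphate and so sets the adenine nucleotide pool of the matrix. Its level was 11.92 and 11.17 in STZ+MENS, 14.20 and 14.50 in STZ, and 15.29 and 13.49 in control. The STZ+MENS samples lay below all 4 others, while the control samples lay 1 on each side of the STZ samples. On the linear scale the arrays read 4012.78 and 3638.22 in STZ+MENS sample 1, and 2081.33 and 2436.61 in STZ+MENS sample 2. The control arrays read 41011.94 and 38779.78 in sample 1 but 11732.06 and 11111.36 in sample 2, so the arrays of a sample agreed and the control samples did not. STZ+MENS differed by -2.80 ± 0.57 (SE) against STZ (adjusted p = 0.0680) and by -2.84 ± 0.57 against control (adjusted p = 0.125). STZ against control gave -0.04 ± 0.57, with an interval of -1.43 to 1.36. Leaving out control sample 1 or control sample 2 put the STZ+MENS difference against control at -1.94 or -3.74.

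The window around the transcription start is shown for 3 carriers because Slc25a25 and Slc25a1 had the largest lower and higher differences between STZ+MENS and STZ, and because Slc25a36 was the other carrier with a cAMP response element. The sequences are from RefSeq for GRCm38.p6, run 5′ to 3′ on the strand of the gene and hold 250 bases before and 50 bases after the start. Windows were matched for 30 of 39 carriers. The 3 motifs searched on both strands were TGACGTCA (cAMP response element), GCGCATGC (NRF1 core) and CACCCCAC (sterol element core). Capitals mark a match, and the matches do not overlap.
Slc25a25, chr2:32424017-32424316, minus strand: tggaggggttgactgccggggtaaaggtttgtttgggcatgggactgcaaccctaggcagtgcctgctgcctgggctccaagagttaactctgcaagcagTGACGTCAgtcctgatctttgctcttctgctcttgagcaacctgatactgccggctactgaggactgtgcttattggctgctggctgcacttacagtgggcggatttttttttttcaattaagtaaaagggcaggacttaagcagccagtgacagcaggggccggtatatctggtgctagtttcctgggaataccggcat
Slc25a1, chr16:17928170-17928469, minus strand: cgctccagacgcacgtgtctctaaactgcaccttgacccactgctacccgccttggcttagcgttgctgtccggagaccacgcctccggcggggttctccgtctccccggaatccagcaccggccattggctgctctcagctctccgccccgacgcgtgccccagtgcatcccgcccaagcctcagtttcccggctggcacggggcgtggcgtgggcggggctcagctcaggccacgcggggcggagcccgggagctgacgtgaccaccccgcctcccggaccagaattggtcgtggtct
Slc25a36, chr9:97110992-97111291, minus strand: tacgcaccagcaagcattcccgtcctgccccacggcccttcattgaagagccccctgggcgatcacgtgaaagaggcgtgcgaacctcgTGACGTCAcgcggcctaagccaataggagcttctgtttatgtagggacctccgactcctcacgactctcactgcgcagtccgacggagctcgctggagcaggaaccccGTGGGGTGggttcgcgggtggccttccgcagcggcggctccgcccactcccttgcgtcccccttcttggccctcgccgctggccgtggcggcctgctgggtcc
The cAMP response element of Slc25a25 starts 150 bases before the start in 1 of its 3 windows, and that of Slc25a36 starts 161 bases before it. The motif occurs in 1.79% of all 32851 windows of this length. It is held by 2 of the 30 carriers with a window, which have 38 windows between them. The sterol element core, found in 2.87% of windows, matched Slc25a36 (on the other strand) and Slc25a24. The NRF1 core, found in 2.71% of windows, matched Slc25a31. The window of Slc25a1 holds none of the 3. A match describes the letters in the window and says nothing of binding in these livers.

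Slc25a23, a second ATP-Mg/phosphate carrier, had another pattern. Its level was 17.59 and 17.31 in STZ+MENS, 17.04 and 16.81 in STZ, and 17.56 and 17.46 in control. Both STZ samples were the lowest, by -0.59 ± 0.17 against control (adjusted p = 0.183), and STZ+MENS was higher than STZ by 0.53 ± 0.17 (adjusted p = 0.126). STZ+MENS and control overlapped, with a difference of -0.06 ± 0.17. The probe ranked between 125 and 302 of 26423 on the arrays. The other ATP-Mg/phosphate carriers, Slc25a24 and Slc25a41, differed by at most 0.29 in size in any comparison, with unadjusted p of 0.0984 or more.

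Slc25a17, which carries coenzyme A, FAD and NAD in the peroxisomal rather than the mitochondrial membrane, was also lowest in STZ. Its level was 13.78 and 14.34 in STZ+MENS, 13.52 and 13.48 in STZ, and 14.37 and 14.001 in control. STZ differed by -0.69 ± 0.23 against control (adjusted p = 0.225), and STZ+MENS by 0.56 ± 0.23 against STZ (adjusted p = 0.195).

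Slc25a3, the phosphate carrier that feeds ATP synthase, was lowest in STZ+MENS, at 12.41 and 12.87, against 13.38 and 13.42 in STZ and 12.92 and 13.60 in control. STZ+MENS lay below STZ by -0.76 ± 0.27 (adjusted p = 0.149), and the difference from control, -0.62 ± 0.27, had an unadjusted p of 0.0575. Slc25a4, the adenine nucleotide translocator of heart and muscle, stood at 9.48 and 9.78 in STZ+MENS, 9.99 and 10.05 in STZ, and 10.07 and 9.62 in control. STZ+MENS was below STZ in both samples, by -0.39 ± 0.20 with an unadjusted p of 0.097, and the control samples overlapped both groups. Slc25a31, the translocator isoform known from testis, differed by 0.32 ± 0.17 between STZ+MENS and STZ, and its second and dimmer probe by 0.16. For STZ+MENS against control its probes disagreed in direction, at 0.18 for the brightest and -0.27 for the second. For STZ against control they gave -0.14 and -0.43. Their mean intensities were 5241.11 and 175.23.

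The pyrimidine nucleotide carriers Slc25a33 and Slc25a36 bring nucleotides for mitochondrial DNA and RNA. Slc25a33 was 12.11 and 13.05 in STZ+MENS, 13.60 and 13.19 in STZ, and 13.07 and 12.80 in control. STZ+MENS sample 1 was the lowest, and sample 2 came close to STZ sample 2. The difference was -0.81 ± 0.33 against STZ (adjusted p = 0.188), and it was -0.34 without STZ+MENS sample 1 and -1.29 without sample 2. Slc25a36, whose window holds the same cAMP response element letters as that of Slc25a25, differed by no more than 0.24 in size in any comparison. As a group, the nucleotide and phosphate carriers averaged 0.52 and 0.36 log2 units below the control mean in the STZ+MENS samples and 0.04 and 0.10 below it in the STZ samples. Slc25a25 weighs heavily in that mean, and the medians of the 10 were -0.35 and -0.11 in the STZ+MENS samples and -0.11 and 0.05 in the STZ samples. At an unadjusted p under 0.05, 2 were higher and 3 lower in STZ+MENS against STZ, 0 higher and 2 lower in STZ against control, and 0 higher and 1 lower in STZ+MENS against control. Of all genes, 12.6% were higher and 12.8% lower in the first of these comparisons. The shares were 8.48% and 8.49% in the second and 8.82% and 9.18% in the third. The counts of 2 and 3 lie above these shares, but a group of 10 is small, and nothing particular to it was read from them.

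Of the 6 carboxylate and keto acid carriers, Slc25a1 separated STZ from the other groups. Slc25a1 is the citrate carrier, whose exported citrate is the source of cytosolic acetyl-CoA for fatty acid and sterol synthesis. Its level was 15.83 and 15.91 in STZ+MENS, 14.98 and 15.12 in STZ, and 16.12 and 15.87 in control. The 8 arrays of STZ+MENS and control lay above all 4 STZ arrays. STZ was 1.93-fold lower than control (-0.95 ± 0.15, adjusted p = 0.101), and STZ+MENS was 1.77-fold higher than STZ (0.82 ± 0.15, adjusted p = 0.0631). STZ+MENS and control overlapped, with a difference of -0.12 ± 0.15 and an interval of -0.50 to 0.25. Over the 15 alternative settings, the Slc25a1 difference lay between -1.07 and -0.82 in STZ against control. In STZ+MENS against STZ it lay between 0.75 and 0.89.

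Slc25a11, the oxoglutarate/malate carrier of the malate-aspartate shuttle, was lower in STZ+MENS than in the other groups. It stood at 13.93 and 14.60 in STZ+MENS, 14.93 and 14.95 in STZ, and 14.99 and 14.95 in control. The 4 STZ and control values lay within 0.1 of each other, and the STZ+MENS samples were far apart. Leaving out STZ+MENS sample 1 put the difference from STZ at -0.34, and leaving out sample 2 at -1.01. The difference was -0.68 ± 0.23 against STZ (adjusted p = 0.142) and -0.71 ± 0.23 against control (adjusted p = 0.202). Slc25a10, the dicarboxylate carrier, was 15.24 and 15.48 in STZ+MENS, 15.66 and 15.47 in STZ, and 15.32 and 15.33 in control, with differences of 0.24 or less in size. Its dimmer probe differed by -0.54 between STZ+MENS and STZ and by -0.52 between STZ+MENS and control.

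Slc25a34 and Slc25a35 are related carriers whose substrates are less settled. Slc25a34 was 10.70 and 10.72 in STZ+MENS, 11.10 and 10.65 in STZ, and 9.56 and 10.30 in control. Both control samples were the lowest, and they differed by more from each other than the samples of the other groups did. STZ exceeded control by 0.95 ± 0.28 (adjusted p = 0.189) and STZ+MENS exceeded it by 0.78 ± 0.28 (adjusted p = 0.226). Slc25a35 was higher in STZ+MENS than in STZ by 0.36 ± 0.15, with an unadjusted p of 0.047. Slc25a21, the oxodicarboxylate carrier, did not pass an unadjusted 0.05 in any comparison, with -0.36 ± 0.19 between STZ+MENS and STZ.

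Among the role groups, the 6 amino acid carriers spanned the narrowest range between STZ+MENS and STZ, where 0 passed an unadjusted 0.05 and the differences lay between -0.07 and 0.16. Slc25a12 is an aspartate/glutamate carrier of the malate-aspartate shuttle. Its level was 10.44 and 11.03 in STZ+MENS, 10.90 and 10.67 in STZ, and 10.83 and 11.01 in control, so all groups overlapped. Slc25a22, a glutamate carrier, was 15.94 and 15.77 in STZ+MENS, 16.20 and 15.59 in STZ, and 15.34 and 15.62 in control. The control samples were on the low side, and the STZ excess of 0.42 ± 0.24 had an unadjusted p of 0.126. Slc25a44, known for carrying branched-chain amino acids in brown fat, was 12.96 and 13.15 in STZ+MENS, 13.24 and 12.56 in STZ, and 13.65 and 13.49 in control. STZ was lower than control by -0.67 ± 0.24 (adjusted p = 0.247), of which STZ sample 2 had the larger share. Slc25a18, another glutamate carrier with a dim probe, was higher in STZ+MENS than in control by 0.41 ± 0.17 (adjusted p = 0.269), at 7.46 and 7.33 against 7.09 and 6.87. Slc25a29, which carries basic amino acids, and Slc25a38, a glycine carrier needed for heme synthesis, stayed at an unadjusted p above 0.05 with differences of 0.27 or less in size.

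The 8 measured carriers of cofactors and metals include Slc25a40, which brings glutathione into the matrix and had the smallest unadjusted p among them in both comparisons with STZ. Slc25a40 was 10.54 and 10.70 in STZ+MENS, 11.20 and 11.40 in STZ, and 10.58 and 10.59 in control. STZ was above both other groups in both samples, by 0.72 ± 0.15 against control (adjusted p = 0.127), and STZ+MENS was below STZ by -0.68 ± 0.15 (adjusted p = 0.0720). The STZ+MENS difference from control was 0.04 ± 0.15. Its paralog Slc25a39, also a glutathione carrier, was 14.47 and 14.63 in STZ+MENS, 14.30 and 14.52 in STZ, and 14.21 and 14.45 in control. The groups of Slc25a39 lay close together, and its largest difference was 0.22 ± 0.16, between STZ+MENS and control.

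Slc25a26, the S-adenosylmethionine carrier, shared the direction of Slc25a40 at smaller size. It was 11.70 and 11.97 in STZ+MENS, 12.34 and 12.24 in STZ, and 11.67 and 11.83 in control. The STZ samples were the highest, by 0.54 ± 0.16 against control (adjusted p = 0.189), and STZ+MENS differed from STZ by -0.46 ± 0.16 (adjusted p = 0.147).

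The carriers linked to coenzyme A differed in opposite directions. Slc25a42, which exchanges coenzyme A and ADP, was 12.46 and 12.73 in STZ+MENS, 12.05 and 11.93 in STZ, and 12.10 and 12.31 in control. STZ+MENS was highest in both samples, by 0.60 ± 0.17 against STZ (adjusted p = 0.101) and by 0.39 ± 0.17 against control (unadjusted p = 0.0545). Slc25a16, linked to coenzyme A transport through its yeast relative, was 12.26 and 11.59 in STZ+MENS, 13.08 and 12.80 in STZ, and 12.88 and 12.64 in control. It was lowest in STZ+MENS, by -1.01 ± 0.25 against STZ (adjusted p = 0.0866) and -0.84 ± 0.25 against control (adjusted p = 0.178).

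Iron enters the matrix through the mitoferrins, Slc25a37 and Slc25a28. Slc25a37, the form that erythroid cells depend on, was 14.79 and 14.41 in STZ+MENS, 13.99 and 14.41 in STZ, and 14.39 and 14.33 in control. Sample 2 of STZ+MENS and sample 2 of STZ were level at 14.41, and no difference had an unadjusted p under 0.05. The 4 measured erythroid markers (Alas2, Slc4a1, Ermap and Rhag, of 8 listed) had a mean level of 10.37 and 8.99 in STZ+MENS, 9.36 and 9.45 in STZ, and 10.38 and 10.23 in control. Of the 4, 0 were higher and 2 lower (Slc4a1 and Rhag) in STZ than in control at an unadjusted p under 0.05. The shares of all genes were 8.48% and 8.49%. Ermap and Rhag had dim probes, with mean intensities of 135.16 and 99.78. The gap between the marker means of the STZ+MENS samples came from Alas2 and Slc4a1. Alas2 was 16.65 and 13.11 in these samples, and Slc4a1 was 10.11 and 7.81. The part of red cell precursors in Slc25a37 was not tested. Slc25a28, the widely expressed mitoferrin, was 14.65 and 14.66 in STZ+MENS, 14.32 and 14.37 in STZ, and 13.94 and 14.19 in control. STZ+MENS was above control by 0.59 ± 0.15 (adjusted p = 0.139), and STZ lay between the groups, with an unadjusted p of 0.105 against control and 0.0766 for STZ+MENS against STZ. Slc25a32, the folate and FAD carrier, differed by at most 0.36 in size, with control samples at 8.86 and 9.61 that spanned the other groups.

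The 3 carriers related to the uncoupling proteins were Slc25a14, Slc25a27 and Slc25a30. Slc25a14 was 11.20 and 11.11 in STZ+MENS, 10.86 and 10.62 in STZ, and 10.51 and 10.55 in control. No groups overlapped, and STZ+MENS was above STZ by 0.42 ± 0.15 (adjusted p = 0.153) and above control by 0.63 ± 0.15 (adjusted p = 0.132). Between the arrays of a sample Slc25a14 had an SD of 0.36, against a carrier median of 0.11. Slc25a27 differed by at most 0.08 in size, and Slc25a30 had -0.40 ± 0.22 between STZ+MENS and STZ.

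Outside these role groups stood the carriers with the smallest unadjusted p in each comparison, Slc25a48, Slc25a46 and Slc25a47. Slc25a48, reported to carry choline, had a level of 10.67 and 9.78 in STZ+MENS, 10.69 and 10.80 in STZ, and 8.80 and 8.91 in control. Every STZ+MENS and STZ array lay above all 4 control arrays. The arrays read 11.46 and 9.88 in STZ+MENS sample 1, 9.82 and 9.74 in STZ+MENS sample 2, 10.58 and 10.79 in STZ sample 1, and 10.41 and 11.19 in STZ sample 2. The control arrays read 8.41 and 9.19 in sample 1 and 9.28 and 8.54 in sample 2, so the close control means are averages of arrays that disagreed. The SD between the arrays of a sample was 0.60, the largest of the 39 carriers, against 0.37 between the samples of a group. STZ was 3.70-fold higher than control (1.89 ± 0.29, adjusted p = 0.0935), and STZ+MENS was 2.58-fold higher (1.37 ± 0.29, adjusted p = 0.127). STZ+MENS and STZ differed by -0.52 ± 0.29, with an interval of -1.21 to 0.17 that includes 0.

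Slc25a47, a carrier made almost only in liver, was 17.62 and 17.65 in STZ+MENS, 17.55 and 17.74 in STZ, and 16.80 and 16.92 in control. The STZ+MENS and STZ samples overlapped and lay above both control samples. STZ exceeded control by 0.78 ± 0.14 (1.72-fold, adjusted p = 0.115), STZ+MENS exceeded it by 0.78 ± 0.14 (adjusted p = 0.121), and STZ+MENS minus STZ was -0.01 ± 0.14 with an interval of -0.36 to 0.34. Its probe ranked between 90 and 298 of 26423 on the arrays.

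Slc25a46 acts in the outer membrane in mitochondrial dynamics rather than as a known metabolite carrier. Its brightest probe read 12.40 and 12.64 in STZ+MENS, 13.57 and 13.37 in STZ, and 13.24 and 13.21 in control. STZ+MENS was lowest in both samples, by -0.95 ± 0.16 against STZ (adjusted p = 0.0596) and -0.71 ± 0.16 against control (adjusted p = 0.128). The second, dimmer probe of Slc25a46 read 11.90 and 11.68 in STZ+MENS, 11.67 and 11.37 in STZ, and 11.49 and 11.89 in control. It differed by 0.27 between STZ+MENS and STZ, so the probes disagreed in direction and the lower level rests on the brightest probe. Slc25a45, whose substrate is less settled, was 14.12 and 13.67 in STZ+MENS, 13.81 and 13.58 in STZ, and 14.22 and 14.18 in control, and STZ was lower than control by -0.50 ± 0.19 (adjusted p = 0.269). Slc25a2, an ornithine carrier homolog, and Slc25a43 were among the dimmer carriers and differed by at most 0.21 in size.

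**Figure D4:**
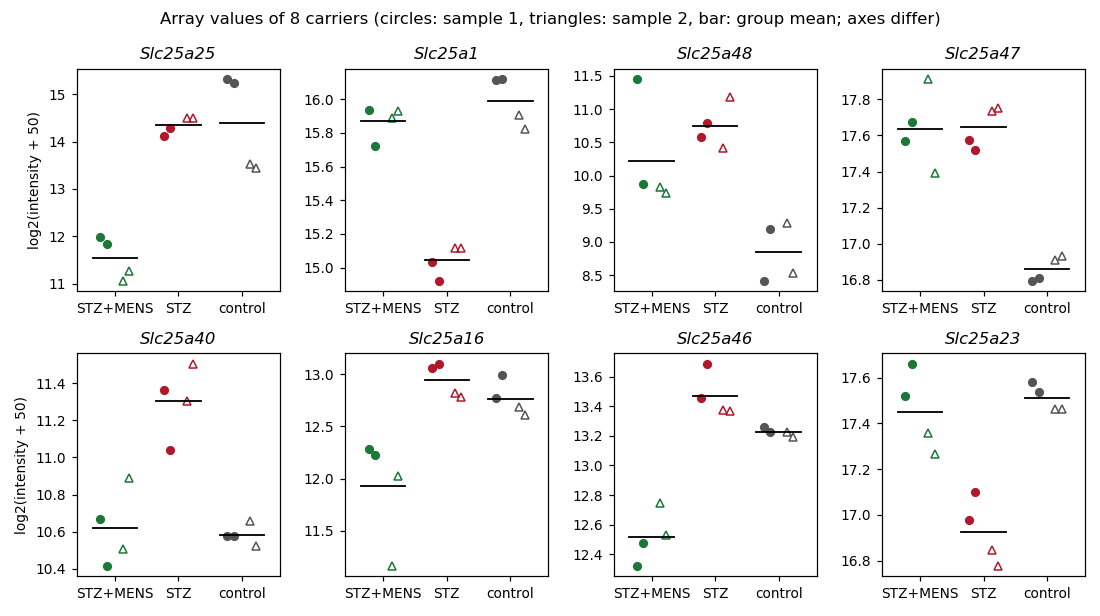
Each point is 1 array of a liver sample (circles sample 1, triangles sample 2) on the log2(intensity + 50) scale, bars are group means, and the axes differ between carriers. The control samples of Slc25a25 lie far apart, the STZ arrays of Slc25a1 and Slc25a23 lie below all others, and the arrays of a sample lie apart for Slc25a48 in 4 of the 6 samples.

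The pattern of the 3 groups therefore differed between carriers. Slc25a1, Slc25a23 and Slc25a17 were lowest in STZ, with STZ+MENS and control overlapping, and Slc25a40 and Slc25a26 were highest in STZ with the same overlap. Slc25a48, Slc25a47 and Slc25a34 were higher in STZ+MENS and in STZ than in control. Slc25a25, Slc25a16 and Slc25a11 were lower in STZ+MENS than in both other groups, as was Slc25a46 on its brightest probe only. The second probe of Slc25a46 differed by 0.27 against STZ and by 0.10 against control.

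Genes that work beside the carriers were read from lists of other mitochondrial transport genes, of enzymes of the shuttles that the carriers serve and of genes of mitochondrial content. None of their members passed after adjustment in any comparison. Among 26 measured transport genes, 2 were higher and 1 lower in STZ against control at an unadjusted p under 0.05, and 3 were higher and 5 lower in STZ+MENS against STZ. Of all genes, 8.48% were higher and 8.49% lower in the first of these comparisons and 12.6% and 12.8% in the second, so the counts of transport genes are near the share of all genes. Micu2, a regulator of the calcium uniporter, was 13.97 and 14.25 in STZ+MENS, 13.89 and 13.85 in STZ, and 13.36 and 13.35 in control. Both STZ+MENS and STZ lay above control, by 0.76 ± 0.15 (adjusted p = 0.124) and 0.52 ± 0.15 (adjusted p = 0.186). Sfxn1, the mitochondrial serine transporter, was higher in STZ+MENS by 0.66 ± 0.16 against STZ (adjusted p = 0.0838). Tomm70a, a receptor of the import complex through which carrier proteins reach the inner membrane, was lower in STZ+MENS than in control by -0.72 ± 0.20 (adjusted p = 0.165). Abcb8, an inner membrane ABC transporter, differed by -0.44 ± 0.16 in STZ against control, and Timm44, of the import motor, by 0.39 ± 0.14.

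The cytosolic enzymes of the malate-aspartate shuttle, Got1 and Mdh1, were lower in STZ+MENS than in STZ at an unadjusted p under 0.05, as was Slc25a11, and the matrix enzymes Got2 (0.35 ± 0.15) and Mdh2 (-0.10 ± 0.19) had an unadjusted p above it. Got1, the cytosolic aspartate aminotransferase, was 15.83 and 16.00 in STZ+MENS, 17.18 and 16.61 in STZ, and 16.53 and 16.24 in control, with -0.98 ± 0.23 against STZ (adjusted p = 0.0797). Mdh1, the cytosolic malate dehydrogenase, differed by -0.79 ± 0.18 (adjusted p = 0.0749). Both were below STZ in both samples, while Slc25a12, an aspartate/glutamate carrier of the shuttle, differed by -0.05 ± 0.23. Carriers that the rule set aside, Slc25a13 among them, were not read here. Pcx, pyruvate carboxylase, which makes matrix oxaloacetate, was higher in STZ+MENS by 0.59 ± 0.14 against STZ (adjusted p = 0.0758). Over the 11 measured shuttle enzymes, 1 was higher and 2 were lower in STZ+MENS against STZ, beside 12.6% and 12.8% of all genes, and 0 passed an unadjusted 0.05 in STZ against control, where Got1 (0.51 ± 0.23) and Gpd2 (-0.76 ± 0.36), of the glycerol phosphate shuttle, had the smallest p.

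Genes of mitochondrial content gave no member at an unadjusted p under 0.05 in STZ against control, where Atp5a1, an ATP synthase subunit, differed by 0.31 ± 0.13. In STZ+MENS against STZ, 0 of 10 were higher and 3 lower (Tfam, Sdha and Sdhb), beside 12.6% and 12.8% of all genes. In STZ+MENS against control the same 3 were lower and 1 was higher, Uqcrc1 of the respiratory chain (0.55), beside 9.18% and 8.82% of all genes. Tfam, which packages mitochondrial DNA and is needed for its transcription, was 8.96 and 9.47 in STZ+MENS, 10.63 and 10.12 in STZ, and 10.30 and 10.19 in control, with -1.16 ± 0.24 against STZ (adjusted p = 0.0700). Sdha, a succinate dehydrogenase subunit, was 14.50 and 15.33 in STZ+MENS, 16.21 and 16.03 in STZ, and 16.41 and 16.18 in control, with -1.20 ± 0.28 against STZ (adjusted p = 0.0781). Both genes were lowest in STZ+MENS sample 1, as were Slc25a3 and Slc25a11, while Slc25a25 and Slc25a16 were lowest in STZ+MENS sample 2. The mean of the content list lay 0.41 and 0.17 below the control mean in STZ+MENS, and in the STZ samples it lay 0.17 above and 0.10 below it. Hepatocyte markers averaged 0.50 and 0.26 below the control mean in STZ+MENS and 0.16 and 0.24 below it in STZ, while their medians were -0.26 and -0.08 in STZ+MENS and 0.02 and -0.26 in STZ. Tat, a tyrosine-degrading enzyme, differed by -1.29 ± 0.23 between STZ+MENS and control. Hpx, the heme-binding plasma protein hemopexin, differed by -0.58 ± 0.35, with groups that overlapped. Fgb differed by -0.37 ± 0.26, and Alb, Ttr and Apoa1 by at most 0.07 in size. The part of mitochondrial content or of hepatocyte share in the carrier differences was not tested.

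**Figure D5:**
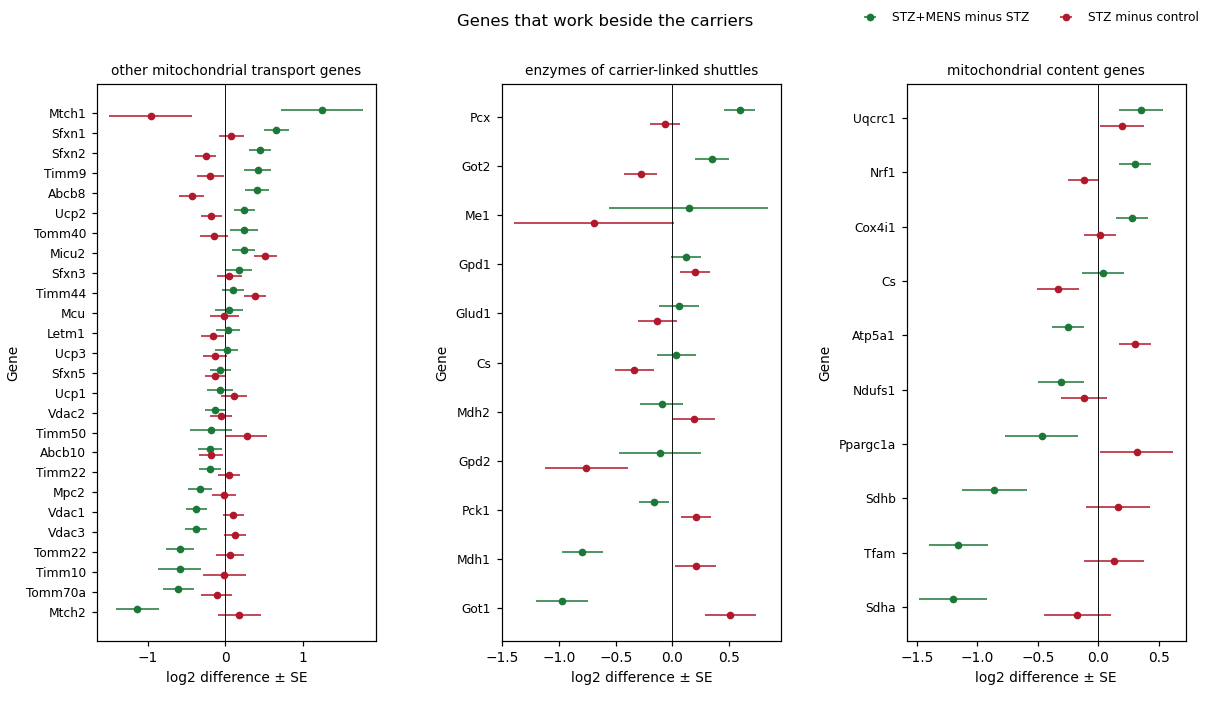
Points are log2 differences with SE bars for 26 other mitochondrial transport genes, 11 shuttle enzymes and 10 mitochondrial content genes, in green for STZ+MENS minus STZ and in red for STZ minus control. Got1, Mdh1, Tfam and Sdha are lower in STZ+MENS than in STZ, and Pcx and Sfxn1 are higher.

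Markers of other liver and neighbouring cells differed too at unadjusted p, with none past the adjusted threshold. Some of them had dim probes, such as Pnlip of the pancreas list, with a mean intensity of 27.39. The 7 cholangiocyte markers had a mean level of 10.08 and 10.35 in STZ+MENS, 10.64 and 10.46 in STZ, and 9.93 and 9.69 in control, and 3 of 7 were higher in STZ than in control at an unadjusted p under 0.05, as were 8.48% of all genes. The 7 adipocyte markers averaged 9.52 and 9.33 in STZ+MENS, 9.76 and 9.65 in STZ, and 9.17 and 9.22 in control. At an unadjusted p under 0.05, 3 of 7 were higher in STZ than in control, against 8.48% of all genes. These 3 were Fabp4 (1.43), Cidec (1.38) and Adipoq (0.38), while Lep differed by 0.02 and Plin1 by -0.10. Of the 7 differences, 6 were above 0 and 1 below. The part of either cell type in the carriers that were higher in STZ, Slc25a48, Slc25a47, Slc25a40, Slc25a26 and Slc25a34, was not tested. The 7 macrophage markers averaged 10.78 and 11.68 in STZ+MENS, 11.30 and 11.30 in STZ, and 11.49 and 11.08 in control, so the STZ+MENS samples lay apart in them.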

How the data were processed

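RNA was extracted from liver with TRIzol, amplified and labelled with Cy5, and hybridised to Phalanx Mouse OneArray chips, per the labels' protocols. The deposited values are linear probe intensities that the authors had processed before deposit. Array medians lay between 768.89 and 770.33, sorted values differed by at most 6.31% leaving out the 1000 lowest, and 44 to 52 of 26423 probes per array were below 0, the forms that quantile normalization and background subtraction leave. How this was done is not stated in what was used here, although limma 3.30.7 appears in the authors' tool list, per the submitters' processing notes. No further normalization was applied. The number of arrays limits the precision.

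Values below 0 were set to 0, 50 was added and log2 taken. A symbol was listed for 20377 probes and several for 0, while 6046 probes are unnamed here. RefSeq names (GRCm38.p6) showed 18213 symbols to be current and 2126 to be synonyms, and 38 were left as listed. A gene was read from its brightest probe. The 2 arrays of a sample were averaged. Means of the 3 groups were fitted in 1 model over the 6 samples with limma 3.58.1 (lmFit, eBayes; R 4.3.3), and two-sided p was adjusted by Benjamini-Hochberg over 17742 genes at 0.05. Errors of differences are SEs and intervals are 95%. With 2 against 2 samples, the smallest p of an exact permutation test is 0.33, so none was run. The script was tested on simulated data. Figures were drawn with Python 3.11.15 and matplotlib 3.10.9.

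Carriers with values in every sample were, per comparison, up to 12 with unadjusted p under 0.05 and groups that did not overlap, and a panel of 14 genes, of which 12 were measured under the rule. Up to 6 genes per comparison were named from the 3 lists of neighbouring genes by smallest p, and other carriers are given by value. The members, lists and panel were chosen with earlier results of these data known. The sample numbers used here are shared between groups by the source names in the labels. The sample titles number the STZ samples unlike those of the other groups, and neither gives a pairing. Deviations of same-numbered samples correlated at 0.01, -0.07 and -0.03 across genes in the 3 comparisons, so no pairing was assumed. The 15 alternatives covered the offset, a dim-probe filter, the probe rule, renormalization, each array alone, an intensity trend, the groups in the model, a replicate block and leaving out each sample.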

Additional observations from a re-analysis of the deposited data

How the results depend on the processing

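Across 15 alternatives, 58 carrier differences were followed. All 32 with an unadjusted p under 0.05 kept their sign. They were picked with groups that did not overlap, so leaving out a sample could not change it. The intensity trend, the replicate block and the choice of groups in the model alter only the errors. Of the other 26, 12 changed sign at least once. The count of carriers past the adjusted threshold in STZ against control was 1 (Slc25a48, adjusted p = 0.014) with only the compared groups in the model and 0 to 1 with a sample left out. In STZ+MENS against STZ it was 0 to 3 with a sample left out, and in STZ+MENS against control it stayed at 0. With a sample left out, the count at an unadjusted p under 0.05 ranged between 4 (without control sample 1) and 10 in STZ against control, between 6 (without STZ sample 2) and 12 in STZ+MENS against STZ, and between 8 and 10 in STZ+MENS against control. The replicate block gave 10, 11 and 11 carriers at an unadjusted p under 0.05 in STZ against control, STZ+MENS against STZ and STZ+MENS against control, and 0 past the adjusted threshold, so it changed no call. For all genes, the counts past the adjusted threshold moved more: 181 in place of 1 for STZ against control with only those groups, and 30 in place of 0 for STZ+MENS against STZ on array 2 alone. Averaging the probes of Slc25a46 put it at -0.34 in STZ+MENS against STZ and -0.30 against control. Signs changed in STZ against control for Slc25a25 (0.0523 on array 2 alone, -0.94 to 0.86 with a sample left out), Slc25a3 (-0.20 to 0.48), Slc25a37 (-0.36 to 0.0498), Slc25a39 (-0.0464 to 0.19) and Slc25a4 (-0.0532 to 0.40). They changed in STZ+MENS against control for Slc25a1 (-0.25 to 0.0021), Slc25a10 (-0.24 with probes averaged, -0.0384 on array 2 alone, -0.0798 to 0.16 with a sample left out), Slc25a12 (-0.48 to 0.11) and Slc25a4 (-0.44 to 0.0069). They changed in STZ+MENS against STZ for Slc25a12 (-0.35 to 0.25), Slc25a22 (-0.35 to 0.27) and Slc25a47 (0.0872 on array 1 alone, -0.11 to 0.0901 with a sample left out). The cause of these changes was not tested, and models with a sample left out also held fewer samples. In models with 1 sample in a group, that sample was assumed to vary like the others.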

Other observations

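Some relatives of the carriers fall outside the naming rule because the platform lists them under other symbols. Slc25a51, the NAD carrier of the matrix, which the platform lists as MCART1, was 13.55 and 13.06 in STZ+MENS, 13.49 and 13.52 in STZ, and 13.31 and 13.38 in control, with differences of -0.20 ± 0.19 for STZ+MENS against STZ and 0.16 ± 0.19 for STZ against control. Slc25a53, listed as MCART6, had a dim probe and differed by 0.09 ± 0.15 and -0.04 ± 0.15. The uncoupling proteins Ucp1, Ucp2 and Ucp3 belong to the same protein family. Ucp2 was 8.17 and 8.20 in STZ+MENS, 7.88 and 7.99 in STZ, and 8.08 and 8.15 in control, lowest in STZ in both samples, with 0.25 ± 0.13 for STZ+MENS against STZ and -0.18 ± 0.13 for STZ against control, both above an unadjusted p of 0.05. Ucp1 and Ucp3, known from brown fat and muscle, differed by at most 0.13 in size.

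Mtch2, an outer membrane relative of the carriers that inserts proteins there, was 11.21 and 11.92 in STZ+MENS, 12.92 and 12.49 in STZ, and 12.65 and 12.39 in control. It differed by -1.14 ± 0.28 for STZ+MENS against STZ, with an adjusted p of 0.0848 from limma. Its relative Mtch1 was 15.59 and 15.67 in STZ+MENS, 13.47 and 15.29 in STZ, and 15.30 and 15.38 in control, so that STZ sample 1 alone stood apart. These genes were picked after their values were seen.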
